A study of Mus musculus with 67 samples.

Results

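Potassium channel genes and their accessory subunits were followed across 3 mouse strains of different blood pressure. The genes were all probe sets whose symbol in the array annotation begins with Kcn, other than those of Kcnd3 and Kcnip2, which left 114 probe sets of 84 genes among 38385 probe sets and 19147 named genes. Several probe sets stood for 21 of the genes, and 3 of the genes were noncoding transcripts with 4 probe sets. Tissues came from untreated male mice aged 12 weeks on standard chow, of inbred strain BPH/2J (hypertensive, stated systolic pressure 142 ± 5 mmHg), BPN/3J (normotensive, 94 ± 6 mmHg) and BPL/1J (hypotensive, 69 ± 1.7 mmHg), and no engineered allele is named for any of them. Single-colour arrays were hybridised with RNA of aorta (9 BPH, 5 BPN and 9 BPL arrays), heart and liver (5 of each strain) and kidney (5 BPH, 5 BPN and 4 BPL). Inbred lines differ at many loci besides those that act on pressure, and the comparisons are therefore between strains. Which arrays share a mouse is not given (5 mice per strain are stated), so p-values measure the spread between arrays, which may be partly technical.

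Potassium channels carry potassium out of cells and set the resting membrane potential. In arterial smooth muscle their opening hyperpolarises the membrane, closes voltage-gated calcium channels and lowers tone; in the heart they repolarise the action potential; in the kidney they recycle potassium across the tubule membranes and secrete it into urine. The Kcna, Kcnb, Kcnc, Kcnd, Kcnh and Kcnq families are voltage-gated, with silent or auxiliary partners in the Kcnf, Kcng, Kcnv, Kcns, Kcnab, Kcnip and Kcne families. The Kcnj family is inwardly rectifying, the Kcnk family forms 2-pore leak channels, and the Kcnma and Kcnn families open with intracellular calcium.

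The promoters of 3 genes on which the results turn are shown for orientation: Kcnk1, which had the widest strain difference of the channel genes in aorta, Kcnj8, the 1 gene that passed the test in all 4 tissues, and Kcnj10, whose kidney arrays did not overlap between any pair of strains. Each window holds 300 bases of the RefSeq reference GRCm38.p6 around the gene's start, most of it upstream, and is not the sequence of the strains studied. The windows lie at chr8:125994852-125995151 on the plus strand (Kcnk1), chr6:142571565-142571864 on the minus strand (Kcnj8) and chr1:172340960-172341259 on the plus strand (Kcnj10), and each is written 5′ to 3′ along its gene. Capitals mark a GC box (GGGCGG on either strand), the only motif found of 3 searched.
Kcnk1: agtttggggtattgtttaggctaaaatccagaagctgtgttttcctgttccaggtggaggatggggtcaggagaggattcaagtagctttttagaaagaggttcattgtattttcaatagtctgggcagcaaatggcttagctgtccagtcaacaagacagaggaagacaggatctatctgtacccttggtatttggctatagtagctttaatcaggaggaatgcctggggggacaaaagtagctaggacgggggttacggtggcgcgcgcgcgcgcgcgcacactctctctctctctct
Kcnj8: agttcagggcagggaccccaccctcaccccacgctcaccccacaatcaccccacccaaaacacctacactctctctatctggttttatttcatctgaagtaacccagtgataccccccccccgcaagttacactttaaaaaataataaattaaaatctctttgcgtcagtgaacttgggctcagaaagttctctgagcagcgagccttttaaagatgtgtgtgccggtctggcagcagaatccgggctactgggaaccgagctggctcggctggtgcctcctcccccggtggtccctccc
Kcnj10: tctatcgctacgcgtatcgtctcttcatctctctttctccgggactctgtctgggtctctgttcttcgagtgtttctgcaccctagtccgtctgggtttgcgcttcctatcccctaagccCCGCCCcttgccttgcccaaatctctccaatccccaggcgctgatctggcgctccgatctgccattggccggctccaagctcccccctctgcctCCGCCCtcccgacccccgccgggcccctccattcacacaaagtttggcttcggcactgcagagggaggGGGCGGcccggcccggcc
The Kcnj10 window held 3 GC boxes and 21 CG dinucleotides with 63.7% G or C, and the Kcnk1 and Kcnj8 windows held no match to a GC box, with 10 and 9 CG dinucleotides. Over all 32851 windows of the reference table, 35.7% held a GC box, and the median was 7 CG dinucleotides and 52.7% G or C. A TATAAA box (13.6% of windows) and a CACGTG E box (7.15%) were not matched in any of the 3. These letter matches describe the windows and do not mark a bound site.

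The share of channel probe sets called against BPN lay above that of all probe sets in heart, in both BPH and BPL, and near it in aorta. Differences are log2 values ± standard error and levels are log2 intensities ± SD; a probe set counts as called, or as having risen or fallen, at an adjusted p under 0.05 over all 38385 probe sets. In aorta 14 of 114 channel probe sets (12.3%) were called between BPH and BPN against 9.15% of all probe sets, with 9 higher (background 4.45%) and 5 lower (background 4.7%). Between BPL and BPN 10 (8.77%) were called against 10.3%, and between BPH and BPL 14 (12.3%) against 11%. In heart 17 (14.9%) were called between BPH and BPN against 7.02% of all probe sets, and 18 (15.8%) between BPL and BPN against 9.34%. Of those heart calls 14 (12.3%) were higher in BPH and 15 (13.2%) in BPL, where 3.51% and 4.14% of all probe sets were higher, and 3 were lower in each, where 3.51% and 5.2% of all were lower. Between BPH and BPL hearts 11 (9.65%) were called against 8.57%.

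Kidney and liver gave fewer calls, below the background in each comparison. In kidney 3 channel probe sets (2.63%) were called between BPH and BPN against 7.05% of all, 5 (4.39%) between BPL and BPN against 6.24%, and 4 (3.51%) between BPH and BPL against 6.33%. In liver the counts were 5 (4.39%) against 7.14%, 3 (2.63%) against 7.47% and 5 (4.39%) against 5.77%. Changes of 2-fold or more were called for 2 probe sets between BPH and BPN aorta (1.8% of all probe sets), 5 between BPL and BPN (2.1%) and 2 between BPH and BPL (1.75%), and elsewhere for Kcnk1 alone. Arrays of the strains did not overlap, called or not, for 6, 7 and 4 channel probe sets in aorta (4.51%, 5.13% and 3.01% of all probe sets, in the same order of comparisons), 14, 15 and 7 in heart (7.97%, 9.23% and 8.39%), 4, 11 and 8 in kidney (8.28%, 9.25% and 9.83%) and 8, 4 and 3 in liver (6.89%, 6.95% and 6.92%). The levels themselves were often low: 44 of the 114 probe sets lay above the median of all aorta probe sets, 41 in heart, 40 in kidney and 34 in liver. The median channel difference in aorta between BPH and BPN was 0.051 beside 0.0026 for all probe sets, and in heart it was 0.016 beside 0.0066. Across tissues 33 genes were called at least once and 51 were not called in any comparison. Counting each gene by its probe set called in most tissues, 19 were called in 1 tissue, 10 in 2, 3 in 3 and 1, Kcnj8, in all 4. Calls of different Kcna2 probe sets together covered heart, kidney and liver. The share of all genes called in any tissue, or in several, is not given. The counts of channel genes by number of tissues are therefore not set against a background.

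Tissue identity was checked by marker lists. Aorta arrays were even in smooth muscle markers (6 of 6 found, mean level 12.38 to 12.55 in BPH, 12.36 to 12.56 in BPN and 12.14 to 12.43 in BPL), heart arrays in cardiomyocyte markers and liver arrays in hepatocyte markers. Several aorta arrays stood apart. BPH 5 had cardiomyocyte markers at 9.07 and atrial markers at 8.57, BPL 26 had hepatocyte markers at 9.21, and BPN 14 had the lowest adipocyte markers of its group, 9.10 against a BPN median of 10.30. Skeletal muscle markers were 7.02 in BPH 6 (BPH median 4.94) and 6.86 and 6.37 in BPL 23 and BPL 21 (BPL median 5.33), and BPH 2 had the lowest adipocyte markers of its group, 9.52. Counts in aorta were 12, 8 and 14 for the 3 comparisons without BPH 5, BPL 26 and BPN 14, and 14, 11 and 10 when BPH 2, BPH 6, BPL 21 and BPL 23 were left out as well. Some marker lists also differed between strains in aorta. Cardiomyocyte markers had medians of 6.82 in BPL, 6.29 in BPN and 6.14 in BPH. Lymphocyte markers had medians of 5.76, 6.68 and 5.62 in the same order. Strain ranges overlapped for both lists, and the part of these cells in the aorta results was not tested. In such whole tissues, fewer cells of a type and less RNA per cell cannot be told apart.

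Kcnk1, which encodes the 2-pore leak channel subunit TWIK-1, changed direction between tissues. In aorta the 9 BPH arrays ran from 9.80 through a median of 10.01 to 10.45, the 5 BPN arrays were 5.96, 5.82, 6.00, 6.61 and 5.75, and the 9 BPL arrays ran from 2.97 through 3.36 to 4.07. No array of one strain reached another strain's range. BPH exceeded BPN by 4.05 ± 0.17 (16.5-fold, adjusted p = 1.83e-15), BPL lay below BPN (-2.58 ± 0.17, adjusted p = 1.93e-11), and BPH exceeded BPL by 6.63 ± 0.14 (98.9-fold, adjusted p = 1.75e-21). Leaving out any 1 array moved the BPH against BPN difference only between 3.98 and 4.19. The BPL level lay below the aorta median of 4.70, and detection calls were not used here, so the BPL fold rests on a low signal.

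In heart Kcnk1 was again higher in BPH, but BPL did not fall below BPN. BPH arrays were 5.28, 5.78, 5.47, 5.28 and 5.47, BPN arrays 3.87, 4.32, 3.87, 4.17 and 3.98, and BPL arrays 3.98, 4.08, 4.05, 4.08 and 3.59. BPH stood clear of both other strains, whose ranges overlapped (BPH minus BPN 1.41 ± 0.12, adjusted p = 1.6e-07; BPL minus BPN -0.09 ± 0.12, adjusted p = 0.741). In kidney the order turned. BPN arrays were 9.74, 9.89, 9.92, 9.76 and 9.59, BPH arrays 8.30, 8.06, 8.44, 8.21 and 8.33, and BPL arrays 8.67, 8.70, 8.56 and 8.56. Both the hypertensive and the hypotensive strain were below BPN without overlap, by -1.51 ± 0.08 (2.85-fold, adjusted p = 1.54e-09) and -1.15 ± 0.08 (2.23-fold, adjusted p = 9.19e-08). BPH was a further -0.36 ± 0.08 below BPL (adjusted p = 0.0161), which failed without BPL 2 (adjusted p = 0.0567) and in a joint fit of all tissues (adjusted p = 0.818). The same kidney arrays differed in hepatocyte markers (3 of 5 found, 8.72 to 9.23 in BPH, 7.68 to 7.84 in BPN and 8.997 to 9.28 in BPL), whose part in the result was not tested.

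In liver Kcnk1 split within strains. BPH arrays were 5.47, 5.55, 6.37, 3.72 and 4.10, BPL arrays 6.13, 5.77, 6.00, 3.55 and 4.39, and BPN arrays 4.04, 3.93, 3.31, 3.22 and 3.46. In each of BPH and BPL, all arrays but array 4 were above every BPN array, array 5 only just so in BPH, which gave wide SDs (5.04 ± 1.10 in BPH and 5.17 ± 1.14 in BPL against 3.59 ± 0.37 in BPN). Array 4 was the lowest array of every strain, BPN included. The differences of 1.45 ± 0.48 (adjusted p = 0.0855) and 1.58 ± 0.48 (adjusted p = 0.0555) did not pass. Both were called when the replicate number was fitted as a block (adjusted p = 0.0048 and 0.00227). Hepatocyte markers were between 12.86 and 13.02 in all 15 liver arrays. With 1 probe set for this gene, no second probe set was there to compare. Probe sequences were not available, so sequence differences between the strains under the probes were not checked, for this or any other gene. An F test that the strain difference is equal in the 4 tissues was called for Kcnk1, with an adjusted p of 1.24e-16 for BPH minus BPN and 4.16e-12 for BPL minus BPN.

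**Figure D1:**
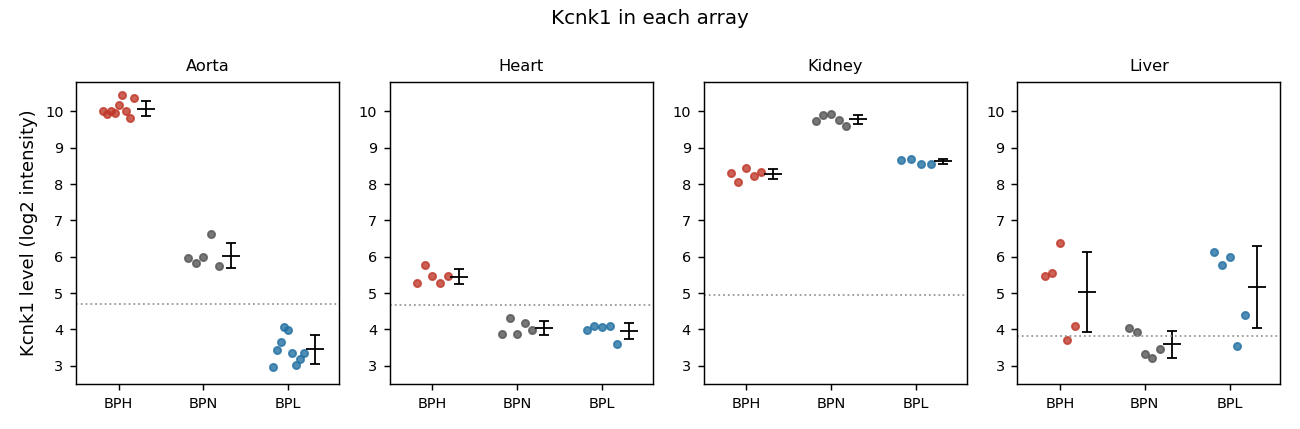
Kcnk1 level (log2 intensity, 1 point per array) in aorta, heart, kidney and liver of BPH, BPN and BPL mice; black marks give the mean and SD and the dotted line the median of all probe sets in that tissue. BPH arrays lie above BPN arrays in aorta and heart and below them in kidney, and the liver arrays of BPH and BPL are split.

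The mechanically gated leak channel TREK-1, encoded by Kcnk2, and the acid-sensitive leak channel TASK-1, encoded by Kcnk3, were higher in both BPH and BPL aorta than in BPN. Kcnk2 ran from 4.68 through 5.34 to 6.10 in BPH, was 4.75, 4.70, 4.41, 4.20 and 4.67 in BPN, and ran from 5.57 through 6.18 to 7.04 in BPL. BPL arrays cleared the BPN range and BPH arrays overlapped it slightly, with differences of 1.63 ± 0.22 (3.1-fold, adjusted p = 5.49e-06) and 0.89 ± 0.22 (adjusted p = 0.00704). Kcnk3 was 9.23, 9.18, 8.48, 7.78 and 9.29 in BPN, against 8.81 to 10.34 in BPH (median 9.90) and 8.94 to 10.94 in BPL (median 10.06). These ranges overlapped. The rise was 1.18 ± 0.29 in BPL (adjusted p = 0.0075) and 0.95 ± 0.29 in BPH (adjusted p = 0.037), and the BPH call did not survive removal of BPH 3, 5, 7, 9 or 10 or of BPN 13 or 14 (0.70, adjusted p = 0.166 without BPN 14). Kcnk3 moved with adipocyte markers within strains: its lowest BPN array, BPN 14, and its lowest BPH array, BPH 2, had the lowest adipocyte markers of their groups (9.10 and 9.52), and its highest BPL array, BPL 22, had the highest (10.71). Median adipocyte levels were 10.25 in BPH, 10.30 in BPN and 10.26 in BPL. Without BPN 14, BPH 5 and BPL 26 together Kcnk3 was not called in either comparison (0.64, adjusted p = 0.242, and 0.91, adjusted p = 0.062); with BPH 2, BPH 6, BPL 21 and BPL 23 left out too it was called in both (0.85, adjusted p = 0.0429, and 1.10, adjusted p = 0.00746). The part of fat in the result was not tested. A second Kcnk3 probe set, of low level, was not called (0.15 in BPH, 0.35 in BPL).

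Kcnk10, encoding TREK-2, was lower in both strains, although its level was below the aorta median. BPN arrays were 3.96, 4.22, 4.31, 3.87 and 3.86, BPH arrays ran from 2.60 to 3.80 and BPL arrays from 2.43 to 3.65. No BPH or BPL array reached the BPN range (BPH minus BPN -0.97 ± 0.17, adjusted p = 0.000353; BPL minus BPN -1.004 ± 0.17, adjusted p = 0.000201). In all, of 13 Kcnk genes with 15 probe sets, 3 probe sets rose and 1 fell in BPH aorta, and 2 rose and 2 fell in BPL aorta. Of all probe sets 9.15% and 10.3% were called in these comparisons.

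Voltage-gated channel genes of aorta were called in both auxiliary and pore subunits. Kcnab1, the Kv beta-1 subunit that inactivates Kv1 channels, ran from 11.50 through 11.55 to 11.65 in BPH, was 10.62, 10.73, 10.78, 10.92 and 10.74 in BPN, and ran from 9.81 through 10.33 to 10.46 in BPL. The 3 ranges did not meet. BPH was higher than BPN by 0.80 ± 0.09 (1.74-fold, adjusted p = 8.59e-07), BPL lower (-0.54 ± 0.09, adjusted p = 0.000187) and BPH higher than BPL by 1.34 ± 0.08 (2.54-fold, adjusted p = 1.68e-12). A second Kcnab1 probe set, near 3.5 on the array scale in every strain, was not called (0.24 and 0.06). Kcnip4, a calcium-binding partner of Kv4 channels, was highest in BPL: 9.50 to 10.14 there (median 9.84), 8.57 to 9.17 in BPH (median 8.91), and 8.14, 8.27, 8.82, 8.53 and 8.59 in BPN. BPL cleared both other strains (1.37 ± 0.12 over BPN, adjusted p = 1e-08), while BPH overlapped BPN (0.41 ± 0.12, adjusted p = 0.0338, lost without any 1 of 7 arrays, with adjusted p = 0.131 at its highest, and adjusted p = 0.113 without the 7 arrays that stood apart).

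Kcna1, the Kv1.1 pore subunit, rose in BPH aorta. Its brightest probe set ran from 6.55 through 6.74 to 6.99 in BPH and was 6.06, 5.44, 5.14, 5.64 and 5.66 in BPN, and BPL arrays ran from 5.32 through 5.89 to 6.38. BPH arrays lay above every array of both other strains, with 1.16 ± 0.15 over BPN (2.24-fold, adjusted p = 5.95e-06) and 0.86 ± 0.13 over BPL (adjusted p = 2.8e-05). Of 3 Kcna1 probe sets 2 were called against BPN, the third giving 0.53 ± 0.21 (adjusted p = 0.139), and all 3 were called against BPL. Kcna5, the Kv1.5 subunit of arterial muscle, was not called (0.21 ± 0.28 in BPH and 0.57 ± 0.28 in BPL). Kcnh2, the ERG1 channel, gave -0.35 ± 0.13 in BPH (adjusted p = 0.115). Among genes chosen after their values were seen, Kcnh1 of the EAG family was higher in BPH (0.97 ± 0.16, adjusted p = 0.000153) at a level under the lower quartile of aorta in BPN, and 1 of its 3 probe sets was called.

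Inward rectifiers of the ATP-sensitive channel moved in opposite directions. Kcnj11 encodes the pore Kir6.2 and Kcnj8 the pore Kir6.1 of vascular muscle. Kcnj11 was 5.10, 6.01, 5.31, 5.82 and 5.51 in BPN, 5.50 to 6.62 in BPH (median 6.38) and 6.30 to 6.67 in BPL (median 6.43). BPL cleared BPN (0.89 ± 0.15, adjusted p = 0.0002), and BPH overlapped it (0.71 ± 0.15, adjusted p = 0.00274). Kcnj8 was 8.17, 8.11, 8.31, 7.71 and 8.19 in BPN, 7.39 to 8.005 in BPH (median 7.69) and 7.45 to 7.79 in BPL (median 7.61). All but 1 BPN array, BPN 14, stood above every BPH and BPL array, and the differences were -0.41 ± 0.10 (adjusted p = 0.00741) and -0.47 ± 0.10 (adjusted p = 0.00197). Kcnj15, encoding Kir4.2, was lower in BPH than in BPN (-0.57 ± 0.11, adjusted p = 0.000976) and was lower in BPH than in BPL (-0.40 ± 0.10, adjusted p = 0.0051). Its second probe set gave -0.56 and was not called. The classical inward rectifier Kcnj2 and its relative Kcnj12 were not called in aorta.

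The pore and beta subunit genes of the large-conductance calcium-activated channel, a main brake on arterial tone, were not called in aorta. Its pore gene Kcnma1 stood at 11.35 ± 0.08 in BPH, 11.39 ± 0.06 in BPN and 11.27 ± 0.08 in BPL, with a 95% interval of -0.17 to 0.09 for BPH minus BPN, and its beta-1 subunit Kcnmb1 at 11.81 ± 0.09, 11.77 ± 0.12 and 11.70 ± 0.10, with an interval of -0.10 to 0.19. Of the small and intermediate channels, Kcnn3 (SK3) fell in BPH (-0.38 ± 0.11, adjusted p = 0.0319, lost without any 1 of 5 arrays, with adjusted p = 0.111 at its highest) and Kcnn4, the intermediate channel of endothelium and immune cells, rose in BPL (0.52 ± 0.16, adjusted p = 0.0348, lost without any 1 of 7 arrays, with adjusted p = 0.106 at its highest). Neither passed without BPN 14, BPH 5 and BPL 26 (adjusted p = 0.0799 and 0.0745) or without all 7 arrays that stood apart (0.104 and 0.187). Macrophage markers ran from 7.65 to 8.85 in BPN and from 7.66 to 8.44 in BPL. The second Kcnn3 probe set read 0.03 and was not called.

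Between BPH and BPL aorta Kcnn2 (SK2) was higher in BPH (0.95 ± 0.24, adjusted p = 0.0103), and Kcnq1, a voltage-gated pore, was lower (-0.44 ± 0.11, adjusted p = 0.00605); neither passed without the 7 arrays that stood apart (adjusted p = 0.0622 and 0.0983). Against BPN Kcnn2 gave 0.90 ± 0.29 with an adjusted p of 0.0521, but it was called without BPH 7, which read 2.88 where the other BPH arrays read 3.99 to 5.15 (1.10, adjusted p = 0.00156). It was also called with a pseudocount of 16 (adjusted p = 0.0356), in the joint fit (0.000937), with a trended robust variance (0.0494) and with 1 probe set per gene (0.0422). The Kcne subunits modify voltage-gated pores, and among them 2 genes chosen after their values were seen were called. Kcne3 was lower in BPH than in BPN (-0.99 ± 0.21, adjusted p = 0.00181), and Kcne4, an inhibitory subunit, was higher in BPL (0.39 ± 0.11, adjusted p = 0.0279, lost without BPN 13, 14 or 15, with adjusted p = 0.0654 at its highest).

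**Figure D2:**
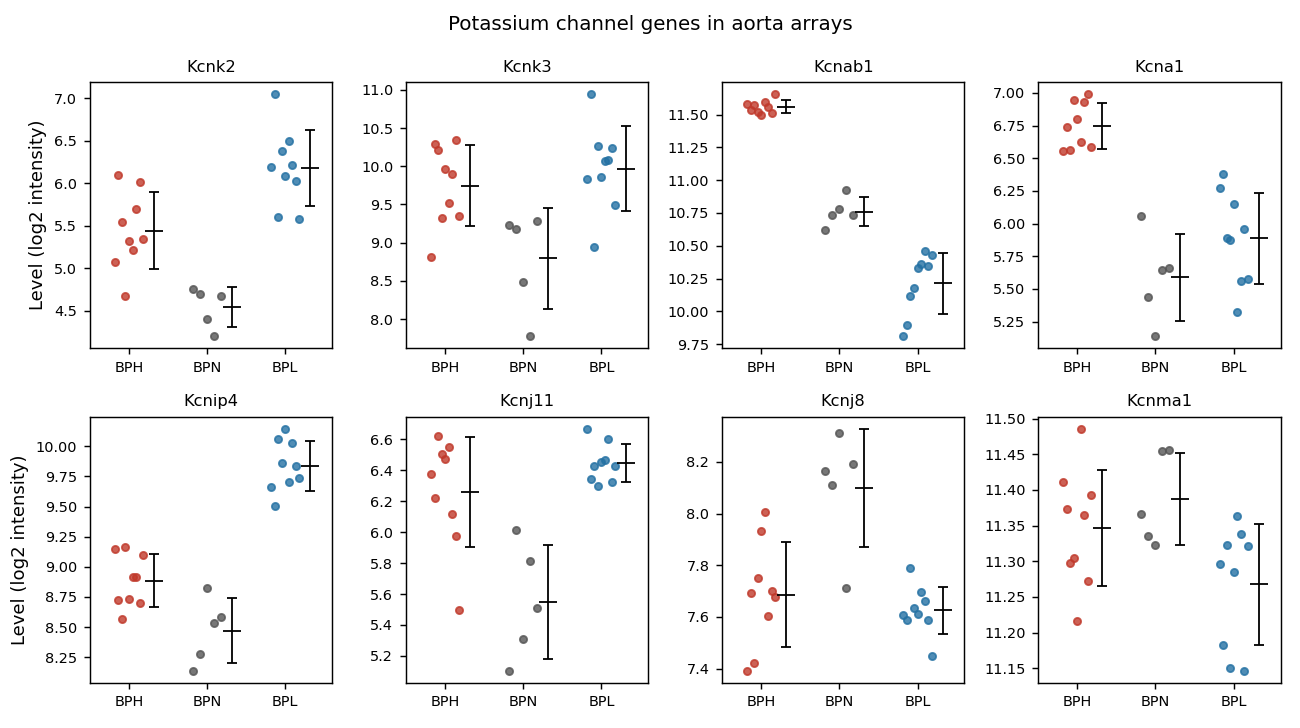
Levels (log2 intensity, 1 point per array, each panel with its own axis range) of 8 channel genes in aorta of BPH, BPN and BPL mice, with mean and SD as black marks. Kcnab1 separates the 3 strains, Kcnip4 is highest in BPL, Kcna1 in BPH, and Kcnma1 arrays of the strains overlap.

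In heart the called channel genes shifted by small amounts, mostly upward in both BPH and BPL relative to BPN. Only Kcnk1 passed 2-fold. Among leak channels Kcnk2 rose in BPH and BPL: BPH arrays were 6.13, 6.17, 6.12, 6.32 and 6.06, BPN arrays 6.01, 5.83, 5.65, 5.95 and 5.72, and BPL arrays 6.14, 6.26, 6.24, 6.18 and 6.12. BPN was below both strains without overlap (0.33 ± 0.07, adjusted p = 0.00681, and 0.36 ± 0.07, adjusted p = 0.00305). Kcnk3 rose in BPH in both of its probe sets (0.26 ± 0.06, adjusted p = 0.0096, and 0.32 ± 0.07, adjusted p = 0.00744). Of the 15 Kcnk probe sets 4 rose in BPH heart, both Kcnk3 probe sets among them, where 3.51% of all probe sets rose.

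Among genes of the cardiac repolarising channels, the auxiliary gene of the slow delayed rectifier was called and its pore gene was not. Kcne1, the beta subunit that slows Kcnq1 to make the slow delayed rectifier, was 6.69, 6.91, 6.78, 7.13 and 7.09 in BPH, 6.42, 6.74, 6.75, 6.63 and 6.31 in BPN and 6.90, 6.89, 6.90, 6.97 and 6.93 in BPL. BPL arrays cleared BPN and BPH arrays overlapped it, with the same rise of 0.35 ± 0.09 in each (adjusted p = 0.0292 in BPH and 0.026 in BPL), lost without any 1 of 5 arrays in BPH and any 1 of 4 in BPL (adjusted p = 0.0856 and 0.0735 at the highest). Neither Kcne1 call passed in the joint fit (adjusted p = 0.0565 in BPH and 0.0541 in BPL). The pore partner of Kcne1, Kcnq1, was not called (0.01 ± 0.06 and 0.06 ± 0.06). Kcnh2, the rapid delayed rectifier, rose in BPL alone against BPN (0.30 ± 0.06, adjusted p = 0.00305) and was lower in BPH than in BPL (-0.26 ± 0.06, adjusted p = 0.011); its BPL arrays, 8.76 to 8.86, stood above all other arrays. Kcnab1 was 5.72, 6.02, 5.91, 5.88 and 5.79 in BPH, 5.35, 5.28, 5.94, 5.18 and 5.17 in BPN and 5.78, 5.91, 5.77, 5.82 and 5.81 in BPL. Apart from BPN 3 the BPN arrays were below every other array, and both rises passed (0.48 ± 0.11, adjusted p = 0.0127, and 0.43 ± 0.11, adjusted p = 0.0206, the latter lost without any 1 of 4 arrays, with adjusted p = 0.06 at its highest).

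Cardiac inward rectifiers moved both ways. Kcnj5, which with Kcnj3 forms the acetylcholine-activated channel of atrial cells, rose in both strains: BPH arrays were 8.81, 8.72, 8.94, 8.66 and 8.74, BPN arrays 8.48, 8.54, 8.55, 8.64 and 8.59, and BPL arrays 8.85, 8.83, 8.99, 8.80 and 8.90. BPN lay below both, by 0.31 ± 0.06 from BPL (adjusted p = 0.00218) and by 0.21 ± 0.06 from BPH (adjusted p = 0.042, lost without any 1 of 10 arrays, with adjusted p = 0.109 at its highest). The BPH call was also lost with median centring (adjusted p = 0.086), in the joint fit (0.393) and with the replicate number as a block (0.0598). A second Kcnj5 probe set was called in BPL (0.51, adjusted p = 0.00261) and not in BPH (0.25). Kcnj3 instead fell in BPL: 7.14, 6.72, 7.41, 7.07 and 7.31 against 7.52, 7.45, 7.49, 7.56 and 7.56 in BPN (-0.39 ± 0.11, adjusted p = 0.0252). The ranges did not meet, but the call was lost without BPL 2, BPL 4, BPN 4 or BPN 5 (adjusted p = 0.0555 at its highest). BPL 2 had the lowest Kcnj3 and the lowest atrial markers (4 of 4 found, 11.20 in that array, 12.64 at the BPL median, 12.62 to 12.86 in BPN), and the part of atrial tissue in the result was not tested. Kcnj12, encoding Kir2.2, rose in BPH (0.46 ± 0.12, adjusted p = 0.0201, lost without BPN 1 or 3, with adjusted p = 0.0602 at its highest), Kcnj11 rose in BPH (0.20 ± 0.06, adjusted p = 0.0423, lost without any 1 of 9 arrays, with adjusted p = 0.116 at its highest), and Kcnj2 was lower in BPH than in BPL (-0.36 ± 0.10, adjusted p = 0.0304, lost without any 1 of 7 arrays, with adjusted p = 0.0841 at its highest). Kcnn2, whose SK2 channel is found in atrial cells, fell in BPH (-0.38 ± 0.10, adjusted p = 0.0279, lost without any 1 of 6 arrays, with adjusted p = 0.0827 at its highest). Atrial markers ran from 12.05 to 12.79 in BPH hearts, with a median of 12.14, against 12.62 to 12.86 in BPN. Their part in the Kcnn2 result was not tested.

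Several heart genes outside the naming rule were chosen after their values were seen. Kcnv2, a silent subunit that modifies Kv2 channels, ran across the strains: 6.93, 7.24, 7.04, 6.92 and 6.73 in BPH, 7.40, 7.37, 7.16, 7.18 and 7.27 in BPN, and 7.87, 8.06, 7.74, 7.56 and 7.65 in BPL. BPL cleared both other strains, by 0.50 ± 0.10 over BPN (adjusted p = 0.00289), and BPH lay below BPL (-0.80 ± 0.10, adjusted p = 2.04e-05) and overlapped BPN (-0.31 ± 0.10, adjusted p = 0.0785). All 3 Kcna1 probe sets rose in both strains, by 0.23 to 0.40 in BPH and 0.34 to 0.48 in BPL, though 2 of the BPH calls were lost without any 1 of 10 and of 7 arrays (adjusted p = 0.115 and 0.102 at the highest). Kcnd2, the Kv4.2 pore of the transient outward current, rose in BPL in both probe sets (0.24 ± 0.06, adjusted p = 0.0111, and 0.43 ± 0.10, adjusted p = 0.011). Kcna7 fell in BPH (-0.36 ± 0.07, adjusted p = 0.00232), with BPH arrays of 6.45 to 6.59 below all others, and Kcna4, the Kv1.4 pore, was higher in BPH (0.32 ± 0.07, adjusted p = 0.00701) at a level below the heart median. Adipocyte markers differed among these hearts, 5.28 to 7.28 in BPH, 5.82 to 7.42 in BPN and 6.13 to 8.44 in BPL, as did macrophage markers (7.80 to 8.09, 8.26 to 8.73 and 7.81 to 7.88), and their part in the heart results was not tested. In a joint fit of all 12 groups, which shares 1 spread over the tissues, the heart counts were 4, 7 and 4, where the heart fit gave 17, 18 and 11. The share of all probe sets called in the joint fit is not given. Whether the heart share stays above that of all probe sets there is therefore not shown.

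In kidney the inward rectifier Kcnj10 followed the order of strain pressure. It encodes Kir4.1, which with Kcnj16 (Kir5.1) forms the basolateral channel of the distal nephron. BPH arrays were 8.59, 8.60, 8.71, 8.57 and 8.66, BPN arrays 8.36, 8.28, 8.33, 8.38 and 8.20, and BPL arrays 7.75, 7.72, 7.77 and 7.88. No pair of strains overlapped, with 0.31 ± 0.06 for BPH over BPN (adjusted p = 0.00213), -0.53 ± 0.06 for BPL against BPN (adjusted p = 2.26e-05) and 0.85 ± 0.06 for BPH over BPL (1.8-fold, adjusted p = 8.55e-08). Kcnj10 stayed called without any 1 array, but BPH against BPN was not called in the joint fit (adjusted p = 0.297). Principal cell markers (4 of 4 found) ran in the same order, 9.29 to 9.61 in BPH, 9.16 to 9.24 in BPN and 8.93 to 9.06 in BPL, intercalated cell markers were 8.55 to 8.74, 8.09 to 8.24 and 8.23 to 8.34, and distal convoluted tubule markers (3 of 3) ran in the opposite order, 7.41 to 7.61, 7.78 to 7.96 and 8.12 to 8.19. Their part in the result was not tested.

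Most other channels of tubular potassium transport were not called. Kcnj1, the secretory channel ROMK, stood at 10.29 ± 0.12 in BPH, 10.28 ± 0.05 in BPN and 10.12 ± 0.02 in BPL and was not called. Kcnj15 (-0.10 ± 0.06 and 0.06 ± 0.07), the proximal tubule channel Kcnk5 (0.01 ± 0.12 and -0.08 ± 0.13) and Kcnq1 (0.11 ± 0.08 and -0.08 ± 0.09) were not called either. Kcnj16 was lower in BPH than in BPL (-0.22 ± 0.06, adjusted p = 0.0423), but not once any 1 of 11 arrays was left out (adjusted p = 0.126 at its highest), and its second probe set was not called (-0.11). Kcnj12, at a low level, fell in both strains (-0.38 ± 0.09, adjusted p = 0.0177, lost without BPH 1 or BPN 1, with adjusted p = 0.0548 at its highest, and -0.58 ± 0.10, adjusted p = 0.000982). Kcne4, chosen after its values were seen, fell in BPL (-0.52 ± 0.14, adjusted p = 0.0353, lost without any 1 of 7 arrays, with adjusted p = 0.106 at its highest).

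In liver the small-conductance channel Kcnn2 rose in both strains. BPH arrays were 8.87, 8.75, 8.75, 9.01 and 8.86, BPN arrays 8.59, 8.27, 8.56, 8.45 and 8.32, and BPL arrays 8.9998, 8.97, 9.16, 9.12 and 9.04. BPN was below both without overlap, by 0.40 ± 0.08 (adjusted p = 0.00192) and 0.61 ± 0.08 (1.53-fold, adjusted p = 2.07e-05), calls that held without any 1 array but not in the joint fit (adjusted p = 0.516 and 0.138). Macrophage markers of liver (5 of 6 found) were lower in both strains without overlap, 6.68 to 7.10 in BPH and 6.92 to 7.05 in BPL against 7.25 to 7.53 in BPN, and their part in the result was not tested. Kcnj10 fell in BPL liver (-0.78 ± 0.12, adjusted p = 0.00021), from 4.30, 4.29, 3.91, 4.12 and 3.74 in BPN to 3.60, 3.49, 3.08, 3.10 and 3.18, without overlap. Among genes chosen after their values were seen, Kcnk10 was higher in BPH (0.63 ± 0.12, adjusted p = 0.0022), where aorta had it lower, and the beta subunit Kcnab2 (0.27 ± 0.07, adjusted p = 0.0283) was called in BPH but lost without any 1 of 5 arrays (adjusted p = 0.0799 at its highest).

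**Figure D3:**
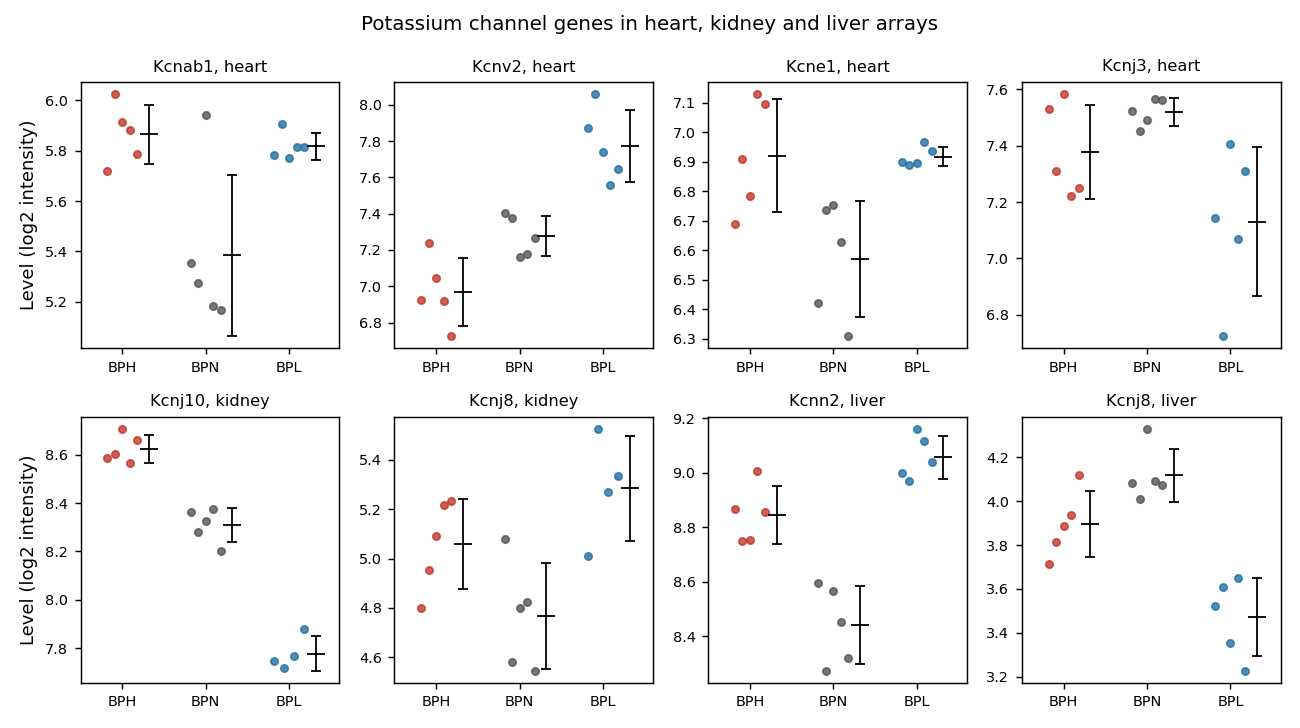
Levels (log2 intensity, 1 point per array, each panel with its own axis range) of channel genes in heart (Kcnab1, Kcnv2, Kcne1, Kcnj3), kidney (Kcnj10, Kcnj8) and liver (Kcnn2, Kcnj8), with mean and SD as black marks. Kidney Kcnj10 separates the 3 strains, Kcnn2 in liver is lowest in BPN, and Kcnj8 in BPL is high in kidney and low in liver.

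Kcnj8, the Kir6.1 pore, was called in BPL against BPN in all 4 tissues, with the sign turned in kidney. It fell in aorta, in heart (-0.31 ± 0.07, adjusted p = 0.0076) and in liver (-0.65 ± 0.09, adjusted p = 0.000112). The heart call was lost in the joint fit (adjusted p = 0.0746). Liver BPL arrays were 3.52, 3.61, 3.35, 3.65 and 3.23 against 4.08, 4.01, 4.33, 4.09 and 4.07 in BPN, without overlap. These BPL arrays lay below the liver median of 3.81, a low signal. In kidney Kcnj8 rose: BPL arrays were 5.01, 5.52, 5.27 and 5.34 and BPN arrays 5.08, 4.58, 4.80, 4.82 and 4.54 (0.52 ± 0.12, adjusted p = 0.0162, lost without BPL 2, with adjusted p = 0.0684). The kidney call was also lost with the replicate number as a block (adjusted p = 0.0574). The ranges overlapped through BPN 1. The F test over tissues was called (adjusted p = 2.14e-08 for BPL minus BPN and 0.000856 for BPH minus BPN). Abcc9, the sulfonylurea receptor SUR2 that assembles with Kir6.1 and neighbours Kcnj8 on chromosome 6 in the RefSeq order, stood in kidney at 7.15 ± 0.15 in BPH, 5.90 ± 0.10 in BPN and 6.94 ± 0.06 in BPL. It rose by 1.24 ± 0.08 and 1.04 ± 0.08 (adjusted p = 1.13e-08 and 1.99e-07). In BPH aorta, where Kcnj8 fell, Abcc9 rose (0.32 ± 0.06, adjusted p = 0.000856).

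Kcne3, which was chosen after its values were seen, was lower in BPH than in BPN in 3 tissues. In liver BPH arrays were 4.98, 5.25, 5.20, 5.04 and 5.30 and BPN arrays 5.75, 5.62, 5.59, 5.71 and 5.70, without overlap (-0.52 ± 0.08, adjusted p = 0.000192). In heart the arrays did not overlap either (-0.42 ± 0.10, adjusted p = 0.0096), while in aorta they did. BPL against BPN was not called in any of these 3 tissues (-0.17, -0.04 and -0.24), and BPH was below BPL in each (-0.82 ± 0.17, -0.38 ± 0.10 and -0.28 ± 0.08; the liver call was lost without any 1 of 6 arrays, with adjusted p = 0.117 at its highest). The BPH against BPN difference of Kcne3 itself differed between tissues (adjusted p = 0.0043).

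**Figure D4:**
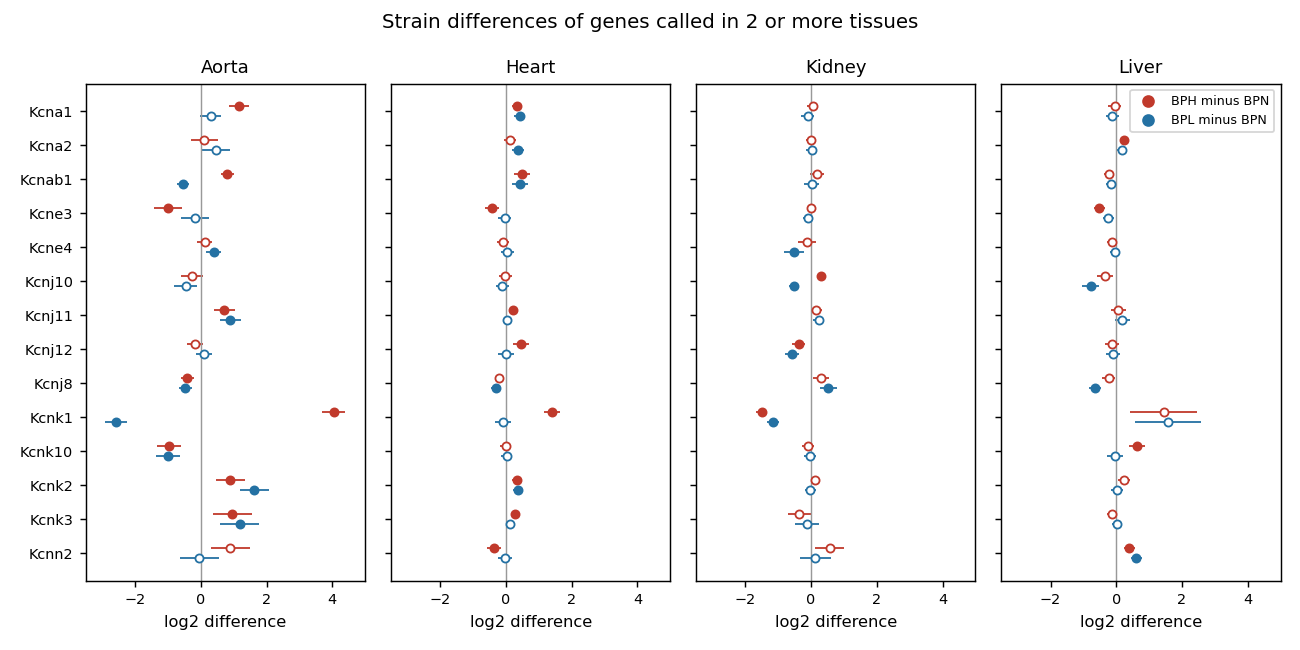
Strain differences (log2) of the 14 channel genes called in 2 or more tissues, BPH minus BPN in red and BPL minus BPN in blue, with 95% intervals, each gene by its probe set of highest heart level; filled points passed the test, open points did not, and both contrasts share the BPN arrays. Kcnk1 points lie on opposite sides of 0 in aorta and both below 0 in kidney.

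Over the 4 tissues, the F test of equal strain differences called 21 channel probe sets for BPH minus BPN, against 13.7% of all probe sets, and 15 for BPL minus BPN, against 15.3%. Besides Kcnk1 and Kcnj8 these included Kcnab1 (adjusted p = 1.33e-07 and 7.32e-07), whose BPL difference was -0.54 in aorta and 0.43 in heart, and Kcnip4 for BPL (2.79e-13). Aorta RNA was amplified by another protocol than the other tissues, so for aorta tissue and amplification cannot be told apart in these tests. Over heart, kidney and liver alone, which share a protocol, the test called 14 channel probe sets for each contrast. The share of all probe sets called in this test is not given, so the count is not set against a background. Kcnk1 (adjusted p = 3.29e-06 for BPH minus BPN and 2e-04 for BPL minus BPN), Kcnab1 (0.00155 and 0.00661) and Kcnj8 (0.0107 and 1.04e-07) were called for both contrasts. Kcnip4 was called for neither (0.985 and 0.739). Other genes named in aorta lost 1 contrast: Kcnk2 for BPH (0.495), Kcna1 for BPH (0.0824), Kcnk10 for BPL (0.963) and Kcnk3 for BPL (0.619).

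Genes known to work with potassium channels, 18 of 22 listed with a probe set, were followed in the same fits. Each was taken by its probe set of highest mean in the tissue. The background holds all probe sets, dim ones among them, so the shares below are not of like sets. In aorta 3 of the 18 (16.7%) rose in BPH, where 4.45% of all probe sets rose, and 3 rose and 1 fell in BPL (22.2% called, against 10.3% of all); single genes weigh heavily in a list of this size. The sodium pump subunits Atp1b1 (0.73 ± 0.17, adjusted p = 0.00407) and Atp1b2 (0.45 ± 0.11, adjusted p = 0.00886) rose in BPH aorta with Abcc9. In BPL aorta the kinases Wnk4 (0.65 ± 0.12, adjusted p = 0.000288) and Stk39 (0.44 ± 0.08, adjusted p = 0.00048), which act on ion cotransporters, and the ubiquitin ligase Nedd4l (0.40 ± 0.12, adjusted p = 0.0257) rose. In heart 2 rose and 1 fell in each strain against BPN (16.7%, against 7.02% and 9.34% of all). Akap9, the anchor protein of the Kcnq1 channel, rose in both (0.48 ± 0.05, adjusted p = 5.34e-06, and 0.24 ± 0.05, adjusted p = 0.00464), and it rose in liver too (0.35 ± 0.08, adjusted p = 0.00896, and 0.33 ± 0.08, adjusted p = 0.013). In aorta Akap9 instead fell in BPL (-0.23 ± 0.07, adjusted p = 0.0445) and was not called in BPH (-0.16 ± 0.07, adjusted p = 0.205). The kinase Sgk1, induced by aldosterone, fell in both hearts (-0.40 ± 0.09 and -0.35 ± 0.09) and in BPL kidney (-0.78 ± 0.14, adjusted p = 0.00201). In kidney 2 rose and 1 fell in BPH, and 1 rose and 1 fell in BPL (16.7% and 11.1%, against 7.05% and 6.24% of all). Liver called 5.56% in each strain against BPN and 0% between BPH and BPL, below the 7.14%, 7.47% and 5.77% of all. Between BPH and BPL 33.3% were called in aorta, 22.2% in heart and 5.56% in kidney, against 11%, 8.57% and 6.33% of all.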

How the data were processed

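Arrays of 67 tissue samples were grouped by tissue and strain from the sample titles. The deposited values are linear intensities, and RMA is named in the submitters' processing notes as the authors' normalisation. Heart, kidney and liver RNA was labelled as cRNA and aorta RNA as cDNA after NuGEN amplification, per the labels. Scaling differs between tissues, so levels were compared within a tissue, and array medians spanned 4.66 to 4.73 in aorta on the log2 scale. The number of arrays limits precision.

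Log2 of the deposited intensity (pseudocount 0) was fitted separately in each tissue, 1 coefficient per strain, using limma 3.58.1 (R 4.3.3). Benjamini-Hochberg adjustment covered all 38385 probe sets, and 0.05 was the threshold. A joint fit of 12 groups gave the F test across tissues. In the platform annotation 24478 probe sets had 1 gene symbol and 65 had several. Channel genes were matched to RefSeq by Entrez identifier (84 of 84 genes), and 64 had a promoter window. No batch, plate or scan date is given in the labels.

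Named genes were called probe sets of 2-fold or more, at most 12 per tissue, and 25 fixed genes by the probe set of highest mean; others are said to be chosen after their values were seen. The members and lists were chosen with earlier results of these data known. The alternatives are a pseudocount of 16, a filter at the tissue median, median centring, the joint fit, a trended robust variance, array weights, 1 probe set per gene, the replicate number as a block and leaving out arrays. The fit was tested on simulated data: for BPH minus BPN over 38385 probe sets, 94% of aorta, 100% of heart, 98% of kidney and 98% of liver probe sets changed by log2 1 were recovered, and 36%, 86%, 74% and 76% of those changed by 0.5.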

Additional observations from a re-analysis of the deposited data

Results flagged for a closer look

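Single arrays stood apart from their group for 3 gene levels. In BPN aorta Kcnk1 read 6.61 in array 14, above the other arrays at 5.75 to 6.00. In BPH aorta Kcnk10 read 3.80 in array 8, above 2.60 to 3.20, and in BPL heart Kcnk1 read 3.59 in array 5, below 3.98 to 4.08. In each case the gap to the nearest array exceeded Dixon's 95% critical value; 27 groups were tested, and chance gives about 1 in 20.

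The strain difference differed between the 4 tissues for 7 genes that changed 2-fold or more in aorta; since they were chosen for a large aorta difference and the test uses the same aorta arrays, these values describe them and are no independent evidence. The adjusted p of the F test was 1.24e-16 for BPH minus BPN and 4.16e-12 for BPL minus BPN for Kcnk1, and 0.0286 and 3.76e-09 for Kcnk2. It was 0.0142 and 2.79e-13 for Kcnip4, 1.33e-07 and 7.32e-07 for Kcnab1, and 0.00308 and 0.00173 for Kcnk3. It was 5.74e-08 and 0.0339 for Kcna1, and 2.76e-08 and 2.21e-05 for Kcnk10. Both contrasts share the BPN arrays. Without aorta the test called Kcnk1 (3.29e-06 and 2e-04) and Kcnab1 (0.00155 and 0.00661) for both contrasts, and Kcnip4 for neither (0.985 and 0.739). It was 0.495 and 0.0208 for Kcnk2, 0.0196 and 0.619 for Kcnk3, 0.0824 and 0.00131 for Kcna1, and 0.000337 and 0.963 for Kcnk10.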

How the results depend on the processing

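No named difference changed sign while called. The setting that moved the counts of called channel probe sets most often was the joint fit of the 12 groups, with 23, 23 and 24 in aorta (BPH minus BPN, BPL minus BPN, BPH minus BPL; 14, 10 and 14 in single tissue fits), 4, 7 and 4 in heart (17, 18 and 11), 2 for BPH minus BPL in kidney (4), and 3 for BPH minus BPN and 2 for BPH minus BPL in liver (5 and 5). A pseudocount of 16 gave 3 for BPH minus BPL in liver and 24 for BPL minus BPN across tissues (15), and median centring gave 3 for BPH minus BPN in liver. Leaving out 1 array gave 11 to 15, 8 to 11 and 14 to 16 calls in aorta, 12 to 17, 14 to 19 and 7 to 12 in heart, 2 to 4, 4 to 6 and 2 to 4 in kidney, and 3 to 6, 3 to 5 and 2 to 5 in liver; the heart low of 7 came without BPH 2, BPL 2 or BPL 5, and the kidney low of 2 for BPH minus BPL without BPL 2. Leaving out the 3 or the 7 aorta arrays together was chosen after seeing the data. Replicate numbers are shared by strains in heart, kidney and liver. Same-numbered arrays correlated above 0.1 in 4 of 15, 1 of 13 and 3 of 15 pairs, with highest values of 0.19, 0.28 and 0.27. Correlations of differently numbered arrays are not given beside them, so these values cannot decide whether the numbers mark a pairing. The main fits did not use the numbers. The replicate block gave 3 calls for BPL minus BPN in kidney (5) and no other count beyond 1.5 times, and with it liver Kcnk1 was called (adjusted p = 0.0048 in BPH and 0.00227 in BPL). With 1 array left out liver Kcnk1 also passed (adjusted p = 0.0298 and 0.00866 at the lowest). The cause of these shifts was not tested. Shares of all probe sets called under the alternative settings are not given. Low signal limits the genes below the tissue median.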
